A study of Homo sapiens with 9 samples.

Results

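The genes described here are 10 markers of epithelial and mesenchymal cell identity: KRT8, KRT18, KRT10, VIM, CDH1, CDH2, EPCAM, LGALS1, PDGFRA and MME. They were taken by name from the deposited tables, where each name matched 1 of 78894 gene entries. The cells were Hap1, an adherent, near-haploid line that goes back to a chronic myeloid leukaemia. In each library the endogenous SARS2 gene, which encodes mitochondrial seryl-tRNA synthetase, was deleted, a FLAG-tagged copy under doxycycline control was present, and doxycycline had been absent for 6 days. The groups differed in a constitutively expressed myc-tagged SARS2 copy, labelled with int14, in 3 forms, namely wild type (WT), R227Q and H448L, with 3 libraries each. Nothing in the labels tells whether replicates were separate cultures or clones, so the p-values speak only of library-to-library spread, possibly technical.

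Epithelial cells are held together by E-cadherin junctions and carry keratin filaments, whereas mesenchymal cells carry vimentin filaments and often N-cadherin. The passage between these states, the epithelial-mesenchymal transition (EMT), is driven by transcription factors of the SNAI, ZEB and TWIST families that bind E-box sequences in promoters such as that of CDH1. Hap1 cells grow attached to the dish, unlike their leukaemic parent line.

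Promoter windows are shown for MME, the member with the largest change, KRT10, called in H448L cells, and VIM, the most abundant member. Each is the 250 bases before a RefSeq transcription start on GRCh38.p14, read 5′ to 3′ on the gene's strand, and capitals mark matches to the motifs searched on both strands.
MME (chr3:155079422-155079671, plus strand): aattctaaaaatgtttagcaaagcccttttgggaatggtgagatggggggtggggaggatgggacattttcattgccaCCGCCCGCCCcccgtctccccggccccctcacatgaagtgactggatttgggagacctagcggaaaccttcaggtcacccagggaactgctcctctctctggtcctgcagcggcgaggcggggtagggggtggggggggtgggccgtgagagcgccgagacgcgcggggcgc
KRT10 (chr17:40822615-40822864, minus strand): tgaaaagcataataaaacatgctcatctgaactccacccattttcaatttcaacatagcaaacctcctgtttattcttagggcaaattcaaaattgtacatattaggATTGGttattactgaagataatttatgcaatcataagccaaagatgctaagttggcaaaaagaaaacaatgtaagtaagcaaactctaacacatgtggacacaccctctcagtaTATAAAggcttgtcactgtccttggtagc
VIM (chr10:17227991-17228240, plus strand): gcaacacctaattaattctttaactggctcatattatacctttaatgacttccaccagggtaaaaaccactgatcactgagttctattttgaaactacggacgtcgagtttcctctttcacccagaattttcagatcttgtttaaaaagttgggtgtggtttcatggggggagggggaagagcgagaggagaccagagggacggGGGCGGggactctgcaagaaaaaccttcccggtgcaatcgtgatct

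The MME window held 2 overlapping matches to the GC box GGGCGG, and the VIM window held 1. The KRT10 window held a TATA box, TATAAA, and a CCAAT box on the opposite strand. Over all 35116 such windows, 42.6% held GGGCGG, 32.0% CCAAT and 10.7% TATAAA. The E-box CAGGTG was in 17.5% of all windows and in 2 of 11 windows of the 6 members that had one, both of them overlapping windows at other MME starts. The element TGACGTCA was in 1.65% of all windows and in 0 of the 11. A match is a string of letters, not evidence of binding, and no match says only that these letters are not in the window.

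Column names begin with SDKYMR (WT 1, WT 2 and R227Q 1) or 4LJFHN (WT 3, R227Q 2, R227Q 3 and all of H448L). The 2 prefixes are read here as 2 submissions to the sequencing service. Library totals were 9900892 to 12991050 counts. The submissions differed in 43.8% of the 16908 genes tested (edgeR's quasi-likelihood test, adjusted by Benjamini-Hochberg, threshold 0.05). Each comparison below by a fitted model carried a submission term unless stated otherwise. The ratios of 2 genes carried none. Some markers of blood, fibroblast and epithelial cells also separated the submissions, and the source of these transcripts was not tested. The embryonic and fetal globins HBE1 and HBG2 were at 0.0407 to 0.154 CPM and at 0 CPM in SDKYMR, against 32.4 to 46.6 CPM and 46.1 to 67.2 CPM in 4LJFHN (CPM is the count divided by the library total, scaled to 1000000). HBG2 and HBG1 share sequence, so their split is uncertain. The fibroblast collagens COL1A2 and COL3A1 were at 0.155 to 0.385 CPM and 0 CPM in SDKYMR, against 5.34 to 10.2 CPM and 2.19 to 4.15 CPM in 4LJFHN. KRT7, a keratin of simple epithelia, went the other way, with 2.69 to 4.31 CPM in SDKYMR and 0.0888 to 0.181 CPM in 4LJFHN.

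**Figure D1:**
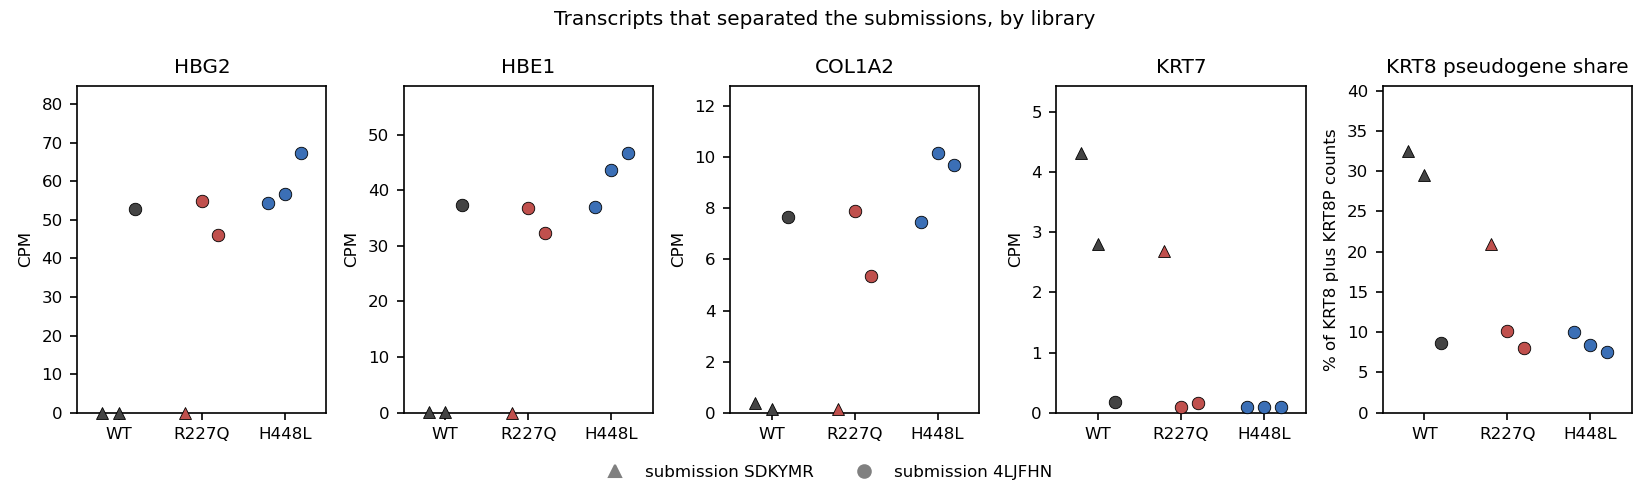
Level of HBG2, HBE1, COL1A2 and KRT7 in CPM, and the share of KRT8 counts assigned to KRT8 pseudogenes in percent, for each library by group; triangles are submission SDKYMR and circles 4LJFHN. The globins and COL1A2 were near 0 in all 3 SDKYMR libraries, while KRT7 was 2.69 to 4.31 CPM there and at most 0.181 CPM in 4LJFHN.

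The 20 haematopoietic markers summed to 9.84 to 11.7 CPM in SDKYMR and 99.9 to 143 CPM in 4LJFHN, and without HBG1, HBG2 and HBE1 to 9.72 to 11.6 and 7.10 to 9.68 CPM. CD79A of that list ran opposite to the globins, with 1.71 to 3.08 CPM in SDKYMR and 0 to 0.303 CPM in 4LJFHN. PTPRC, the leukocyte antigen CD45, was at 0 to 0.693 CPM. No marker of that list was at 0 in every library, and by group the sums ran from 9.84 to 113 CPM in WT, 11.7 to 116 CPM in R227Q and 113 to 143 CPM in H448L. The 8 endothelial markers summed to 0.434 to 2.86 CPM over all libraries, and the 9 neuronal and kidney line markers to 181 to 207 CPM. The part of these transcripts in the results was not tested. Within-submission values are therefore given beside each called member.

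Per kilobase of exon, VIM was the most abundant member (209 to 295 CPM per kilobase). KRT10 (39.7 to 61.4) and LGALS1 (39.0 to 54.2) came next and overlapped across libraries, followed by KRT18 (21.6 to 26.0). CDH2 (5.54 to 9.89) and MME (1.93 to 6.16) overlapped, as did KRT8 (0.811 to 1.27) and PDGFRA (0.534 to 1.10), and PDGFRA and EPCAM (0.220 to 0.722). CDH1 was lowest, at 0 to 0.0432 CPM per kilobase. Lengths are the union of GENCODE 29 exons, and the sources used here do not describe coverage along transcripts. EPCAM had 6 to 19 counts in every library, and CDH1 0 to 3. The desmosomal genes JUP, DSP and DSG2 were at 74.4 to 81.9, 52.7 to 91.0 and 63.6 to 74.7 CPM, and these genes were chosen after their values were seen.

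Of the 10 members, 9 passed the filter on low counts and were tested, and CDH1 did not. In R227Q cells MME, PDGFRA and CDH2 were lower and KRT18 was higher, which is 3 lower and 1 higher of 9, beside 9.92% and 7.51% of all tested genes (17.4% in either direction). In H448L cells MME, PDGFRA and KRT10 were lower, 3 of 9, beside 4.99% of all tested genes, and 0 were higher, beside 2.97% (7.97% in either direction). EdgeR's unadjusted p was under 0.05 for 5 members in R227Q and 4 in H448L, DESeq2 called 2 in each, and limma-voom 4 and 3. The median log2 fold change of the 9 was −0.12 for R227Q and −0.11 for H448L, against 0.00 and 0.01 for all genes tested. The 2 comparisons share the WT libraries. In bulk RNA, fewer cells with a transcript and less of it per cell cannot be told apart.

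**Figure D2:**
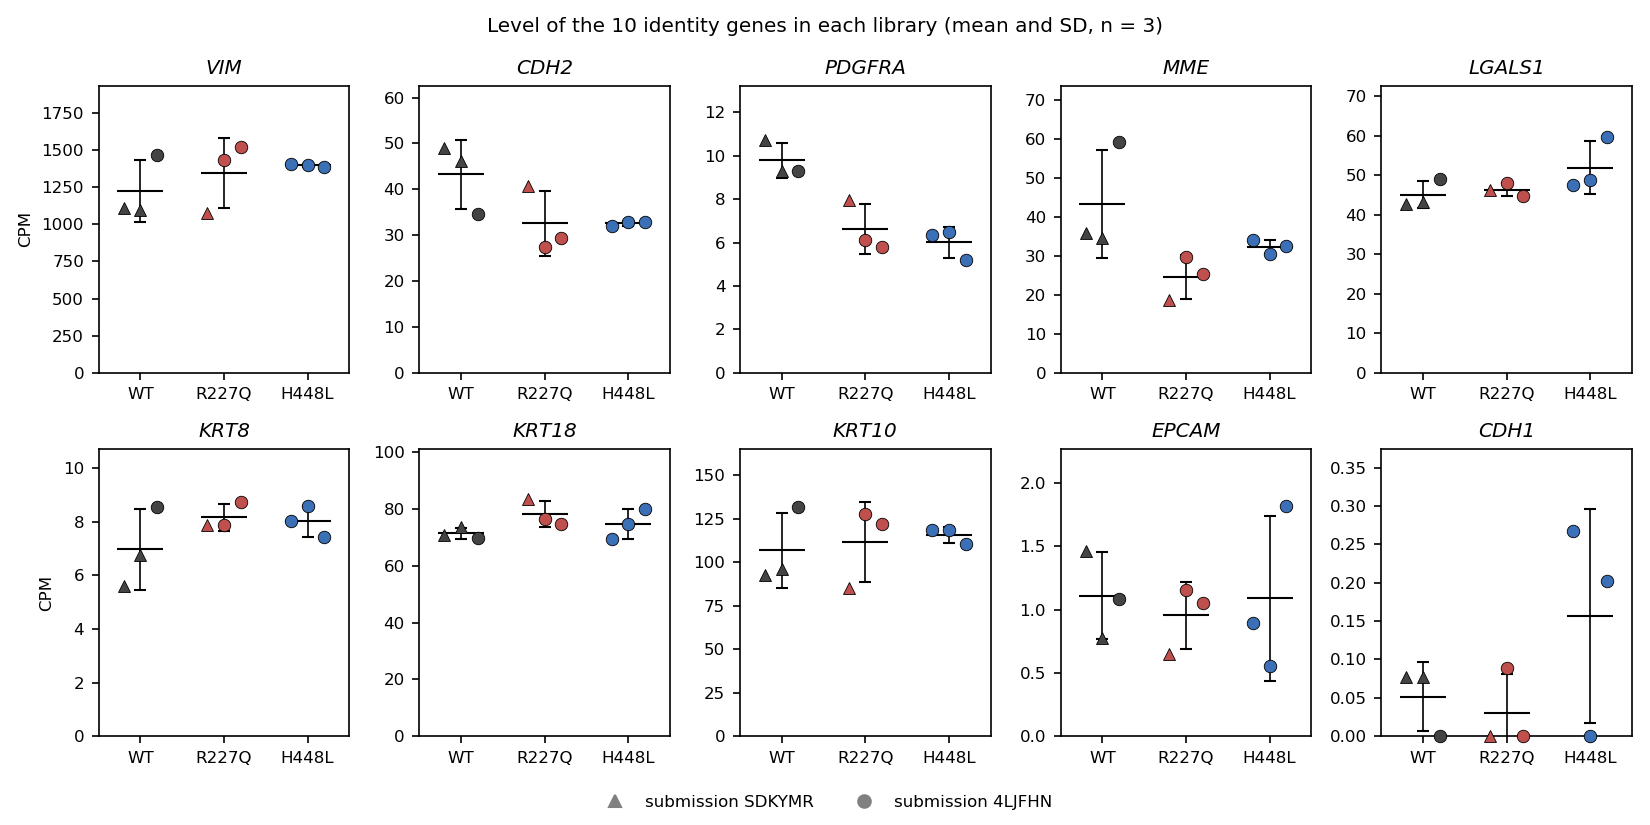
Level in CPM of each member in each library by group; triangles are submission SDKYMR, circles 4LJFHN, and bars the mean and SD of 3 libraries. PDGFRA and MME were lower in every R227Q and H448L library than in every WT library, while VIM and KRT10 followed the submission more than the group.

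MME encodes neprilysin (CD10), a zinc metallopeptidase at the cell surface that cleaves small peptides. It (ENSG00000196549) lies on chromosome 3 from 155024124 to 155183729 (GENCODE 29, GRCh38, plus strand). MME was 35.9, 34.6 and 59.2 CPM across WT 1 to 3, 18.6, 29.7 and 25.3 across R227Q 1 to 3 and 34.1, 30.5 and 32.4 across H448L 1 to 3. Every WT library was above every variant library, although H448L 1 and WT 2 were close and came from different submissions. In R227Q cells MME was 2.07-fold lower (log2 fold change −1.05 ± 0.07 (SE), edgeR adjusted p = 2.5e-11), and within submissions −0.93 (SDKYMR) and −1.12 (4LJFHN). In H448L cells it was 1.81-fold lower (−0.86 ± 0.08, edgeR adjusted p = 5.3e-08), with −0.89 within 4LJFHN. Both calls held without each single library (−1.12 to −0.93 for R227Q and −0.91 to −0.71 for H448L). Without the submission term both were lost (−0.84 and −0.47, edgeR adjusted p = 0.073 and 0.18), and MME was itself higher in 4LJFHN than in SDKYMR by 0.63 ± 0.07 on the log2 scale.

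PDGFRA encodes the alpha receptor for platelet-derived growth factor, a tyrosine kinase of mesenchymal cells (ENSG00000134853, chromosome 4, 54229097 to 54298247, plus strand). Its level was 10.7, 9.32 and 9.32 CPM across WT 1 to 3, 7.94, 6.13 and 5.79 across R227Q 1 to 3 and 6.37, 6.51 and 5.20 across H448L 1 to 3. The WT libraries did not overlap either variant, in counts that ran from 51.5 to 139.5 per library. PDGFRA was 1.40-fold lower in R227Q (−0.48 ± 0.13, edgeR adjusted p = 0.0070) and 1.45-fold lower in H448L (−0.54 ± 0.16, edgeR adjusted p = 0.030). Within submissions, R227Q minus WT was −0.33 (SDKYMR) and −0.64 (4LJFHN), and H448L minus WT was −0.64 (4LJFHN). PDGFRA shares 1533 exon bases with AC058822.1 on the same strand, which held 50 counts over the 9 libraries. The calls were lost without WT 3 (−0.34 and −0.33) and without the submission term (−0.59 and −0.75). The R227Q call was also lost with DESeq2 (−0.50) and within SDKYMR alone (−0.33), and the H448L call without H448L 3 (−0.45). For H448L, DESeq2 gave PDGFRA no adjusted p, so that tool neither called it nor ended the call.

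**Figure D3:**
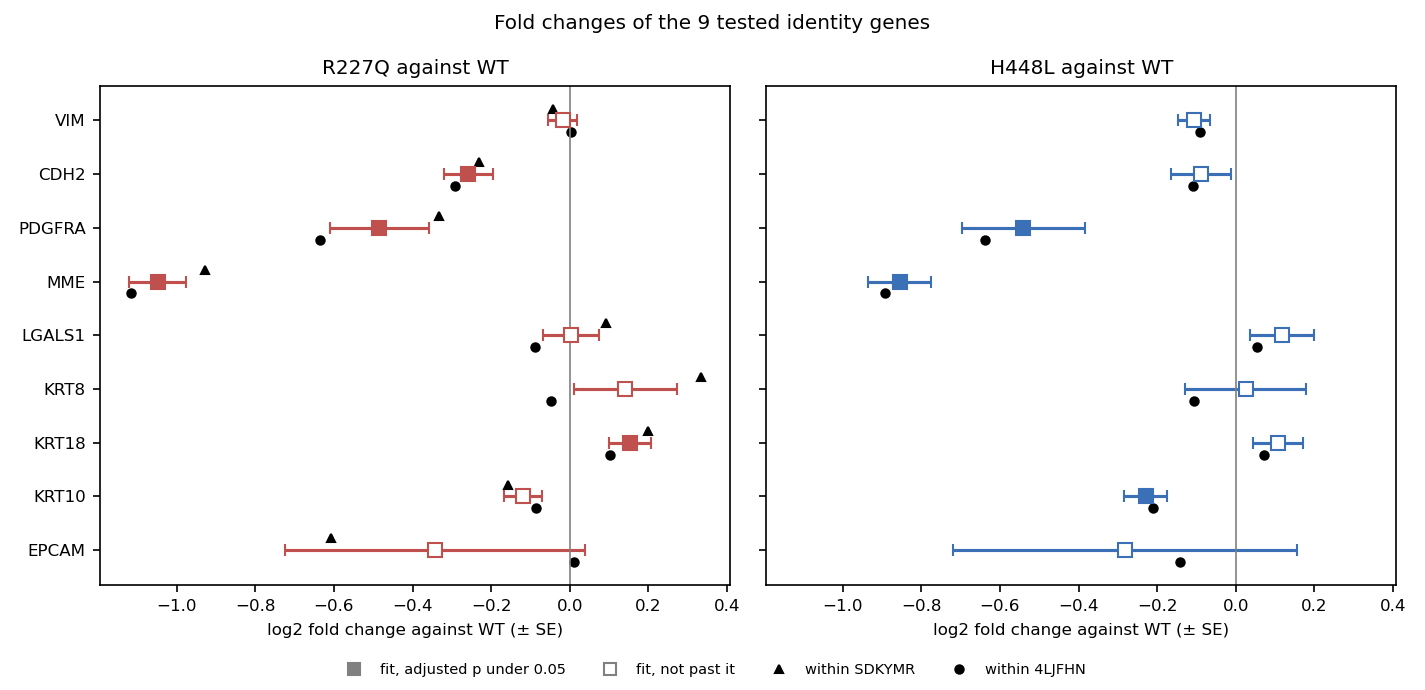
Log2 fold change against WT with its SE for the 9 tested members, R227Q at left and H448L at right; filled squares passed an edgeR adjusted p of 0.05, and black marks are differences of mean log2 CPM within a submission. MME and PDGFRA were left of 0 in both panels and in each submission, while the marks for KRT8 lay on both sides of 0 in R227Q.

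CDH2 encodes N-cadherin, the adhesion protein of neural and mesenchymal cells (ENSG00000170558, chromosome 18, 27950966 to 28177446, minus strand). Its level was 49.0, 46.1 and 34.6 CPM across WT 1 to 3, 40.7, 27.4 and 29.5 across R227Q 1 to 3 and 32.0, 32.9 and 32.8 across H448L 1 to 3. R227Q 1 lay above WT 3, so those groups overlapped across submissions, but within each submission the R227Q libraries were below the WT ones. The R227Q change was −0.26 ± 0.06 (edgeR adjusted p = 0.0037), and −0.23 (SDKYMR) and −0.29 (4LJFHN) within submissions. That call was lost without WT 3 (−0.24) or R227Q 1 (−0.29), within either submission alone (−0.22 in SDKYMR and −0.29 in 4LJFHN) and without the submission term (−0.44). In H448L the value was −0.09 ± 0.08 and did not pass (edgeR adjusted p = 0.55). The direct difference, H448L minus R227Q, was 0.17 ± 0.07 (edgeR adjusted p = 0.33), so a difference between the variants was not shown.

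CDH1, E-cadherin of epithelial junctions (ENSG00000039068, chromosome 16, 68737225 to 68835548, plus strand), had 1, 1 and 0 counts in WT 1 to 3, 0, 1 and 0 in R227Q 1 to 3, and 3, 0 and 2 in H448L 1 to 3. No library exceeded 3 counts, the upper limit that a count of 0 allows, which stood for 0.231 to 0.303 CPM and covers counting error only. No difference between groups was detectable at this depth. EPCAM, an adhesion molecule of simple epithelia (ENSG00000119888, chromosome 2, 47345158 to 47387601, plus strand), had 6 to 19 counts per library. Its level was 1.46, 0.777 and 1.09 CPM across WT 1 to 3, 0.652, 1.15 and 1.05 across R227Q 1 to 3 and 0.891, 0.554 and 1.82 across H448L 1 to 3. The 3 groups overlapped, and neither variant passed the test (−0.34 ± 0.38 and −0.28 ± 0.44, edgeR adjusted p = 0.60 and 0.77).

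The keratins KRT8 (type II) and KRT18 (type I) pair to form the filaments of simple epithelia, and their genes are neighbours on chromosome 12 (KRT8, ENSG00000170421, 52897187 to 52949954, minus strand; KRT18, ENSG00000111057, 52948871 to 52952901, plus strand). Their annotated exons share 525 bases on opposite strands, and the sources used here do not tell whether counting used strand, so both are uncertain. KRT18 was 70.9, 73.8 and 70.0 CPM across WT 1 to 3, 83.5, 76.6 and 74.7 across R227Q 1 to 3 and 69.6, 74.7 and 80.2 across H448L 1 to 3. The R227Q libraries were all above the WT ones, by 0.15 ± 0.05 on the log2 scale (edgeR adjusted p = 0.044), and H448L overlapped both (0.11 ± 0.06, edgeR adjusted p = 0.34). R227Q exceeded WT by 0.20 in SDKYMR and by 0.10 in 4LJFHN. The R227Q call was just inside the threshold and was lost without any 1 of WT 1 (0.13), WT 2 (0.16), WT 3 (0.20), R227Q 1 (0.10), R227Q 2 (0.16) or R227Q 3 (0.16). It was also lost with DESeq2 (0.14), RLE factors (0.14), no filter (0.15), no submission term (0.10), 4LJFHN alone (0.10) and SDKYMR alone (0.21).

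KRT8 was 5.58, 6.76 and 8.55 CPM across WT 1 to 3, 7.86, 7.86 and 8.75 across R227Q 1 to 3 and 8.01, 8.58 and 7.42 across H448L 1 to 3. The lowest libraries were the WT ones of SDKYMR, and neither variant passed the test (0.14 ± 0.13 and 0.03 ± 0.15, edgeR adjusted p = 0.52 and 0.95). R227Q minus WT was 0.33 within SDKYMR and −0.05 within 4LJFHN. KRT8 has many processed pseudogenes. The 51 entries named KRT8P held 32.6%, 29.6% and 20.9% of KRT8 plus pseudogene counts in WT 1, WT 2 and R227Q 1, but 7.55% to 10.2% in the 4LJFHN libraries. The 69 entries named KRT18P held 5.97% to 8.55% of the KRT18 sum in all libraries. With pseudogene counts added to the parent genes, no call of a member changed. The log2 ratio of KRT8 to KRT18 counts differed from WT by 0.12 in R227Q and 0.16 in H448L (exact permutation test, two-sided, p = 0.60 each, the smallest possible being 0.10). That test carried no submission term. In 4LJFHN alone the R227Q and H448L values were −0.16 and −0.19, and with pseudogenes added they were −0.09 and −0.14.

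KRT10, a type I keratin of the upper epidermis (ENSG00000186395, chromosome 17, 40818117 to 40822595, minus strand), was 92.5, 95.9 and 131.6 CPM across WT 1 to 3, 85.1, 127.7 and 122.1 across R227Q 1 to 3 and 118.2, 118.5 and 110.1 across H448L 1 to 3. All SDKYMR libraries were below all 4LJFHN libraries (submission difference 0.47 ± 0.05 on the log2 scale). With the submission term KRT10 was lower in H448L by −0.23 ± 0.05 (edgeR adjusted p = 0.0073), with −0.21 within 4LJFHN, where each H448L library was below WT 3. That call was lost without WT 3 (−0.28) or R227Q 1 (−0.21) and within 4LJFHN alone (−0.21), and the value turned to 0.065 without the submission term. The R227Q value was −0.12 ± 0.05 (edgeR adjusted p = 0.085); SDKYMR gave −0.16 and 4LJFHN −0.09. The direct difference between the variants, H448L minus R227Q, was −0.11 ± 0.05 (edgeR adjusted p = 0.36). KRT10 overlaps TMEM99 (KRT10-AS1 in the deposited tables) on the opposite strand, with 56 shared exon bases. KRT10 is uncertain for that reason, and TMEM99 held 1542 counts over the 9 libraries.

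VIM encodes vimentin, the filament protein of mesenchymal cells (ENSG00000026025, chromosome 10, 17228259 to 17237593, plus strand). Its level was 1108, 1097 and 1465 CPM across WT 1 to 3, 1079, 1435 and 1524 across R227Q 1 to 3 and 1406, 1397 and 1388 across H448L 1 to 3. It split by submission (0.38 ± 0.04 higher in 4LJFHN on the log2 scale) and not by group. The fold changes were −0.02 ± 0.04 in R227Q and −0.11 ± 0.04 in H448L (edgeR adjusted p = 0.79 and 0.12). VIM had 13248 to 18818 counts per library, and H448L minus WT was −0.09 within 4LJFHN. It shares 641 exon bases with VIM-AS1, which held 185 counts over the 9 libraries. The log2 ratio of VIM to KRT8 counts differed from WT by −0.11 in R227Q and −0.02 in H448L (exact permutation test, two-sided, p = 0.60 and 1.0), and by 0.08 and 0.25 with pseudogenes added. That test carried no submission term, and in 4LJFHN alone the R227Q and H448L values were 0.06 and 0.03.

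LGALS1, the secreted galactose-binding lectin galectin-1 (ENSG00000100097, chromosome 22, 37675608 to 37679806, plus strand), was 42.8, 43.3 and 49.0 CPM across WT 1 to 3, 46.3, 48.0 and 44.9 across R227Q 1 to 3 and 47.4, 48.8 and 59.6 across H448L 1 to 3. H448L 3 stood above all others, and that library also had the highest HBG2 level (67.2 CPM). A link between these levels was not tested. Neither variant passed the test (0.00 ± 0.07 and 0.12 ± 0.08, edgeR adjusted p = 0.98 and 0.44).

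**Figure D4:**
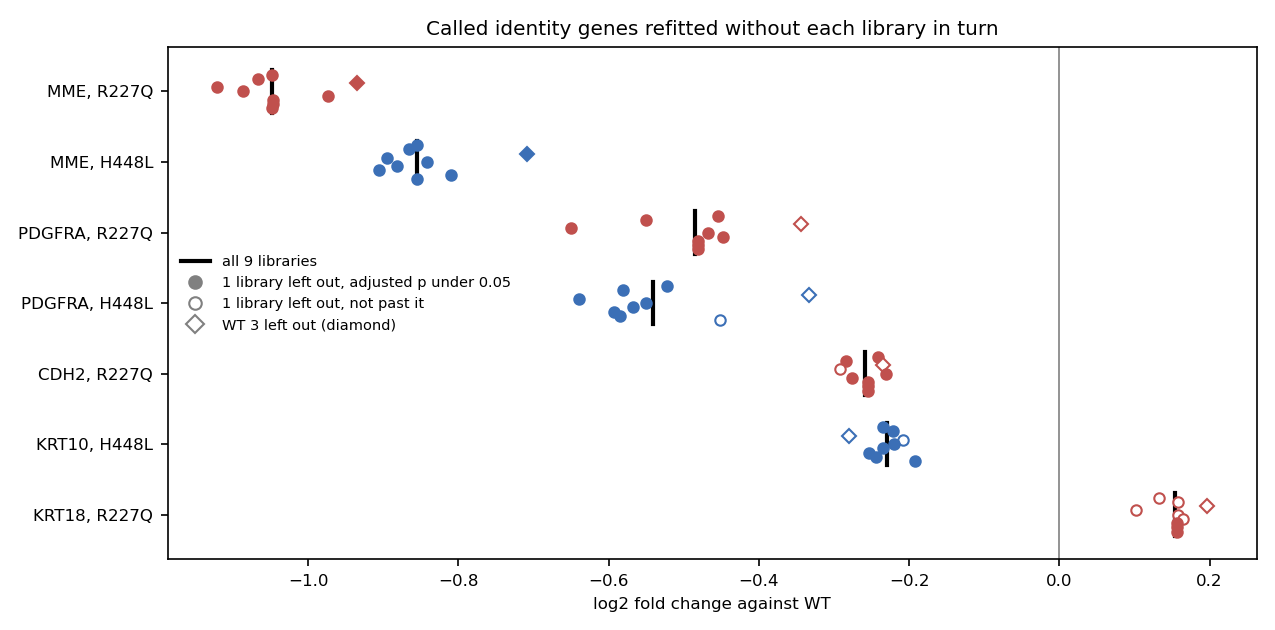
Log2 fold change against WT of each called member when 1 library at a time was left out; black bars are the fits to all 9 libraries, filled points passed an edgeR adjusted p of 0.05, open points did not, and diamonds are the fits without WT 3. Every MME point is filled, whereas the PDGFRA points without WT 3 (−0.34 and −0.33) are open.

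Between the variants themselves, H448L against R227Q, 0 of 9 members passed edgeR's test, beside 0.207% of all genes tested (0.0828% higher and 0.124% lower). By DESeq2 and by limma-voom it was also 0, and edgeR's unadjusted p was under 0.05 for 4 members. These were MME (0.19 ± 0.08, H448L minus R227Q), CDH2, KRT10 and VIM (−0.09 ± 0.04), with edgeR adjusted p from 0.32 for MME to 0.36 for KRT10. A test of whether the R227Q change differed between the submissions called 0 members and 0 of 16908 genes (edgeR interaction term), with an unadjusted p under 0.05 for 0 members and 736 genes, and an unadjusted p of 0.15 for the member with the smallest, KRT8. That test was not run with another tool. It rested on the single R227Q library of SDKYMR and the single WT library of 4LJFHN. It therefore cannot show that the R227Q change was alike in the submissions.

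Each related list is given by its counts of called genes, to be read beside the shares of all tested genes. These shares were 7.51% higher and 9.92% lower in R227Q, and 2.97% higher and 4.99% lower in H448L. Of the named list genes, 19 calls were made in R227Q and 11 in H448L, and DESeq2 ended 5 and 3 of them. In R227Q, fitting 4LJFHN alone or SDKYMR alone ended 11 of 19 each, and in H448L fitting 4LJFHN alone ended 2 of 11. DESeq2 gave no adjusted p for KRT17 in R227Q, PDGFA in H448L and CLDN3 between the variants. In the list of epithelial keratins and junction genes, 23 of 44 were tested, and 1 rose and 2 fell in R227Q (median log2 fold change 0.05), while 0 passed in H448L (median 0.02). KRT17, a keratin of injured and basal epithelia, was 1.23, 1.71 and 0.995 CPM across WT 1 to 3, 0.0815, 0.444 and 0 across R227Q 1 to 3 and 1.07, 0.646 and 0.808 across H448L 1 to 3. Its R227Q value was −2.80 ± 0.55 (edgeR adjusted p = 4.6e-04), a call lost without R227Q 1 (−2.19), and single refits ran from −4.59 to −2.19. KRT17 shares sequence with other keratins and its counts are uncertain. ITGA6, the integrin subunit of hemidesmosomes, fell in R227Q by −0.50 ± 0.08 (edgeR adjusted p = 2.0e-05), and by −0.56 and −0.44 within SDKYMR and 4LJFHN. Its H448L value was −0.27 ± 0.09 and did not pass (edgeR adjusted p = 0.056). MUC1, an apical mucin, stood at 0.91 ± 0.26 in R227Q (edgeR adjusted p = 0.014), lost without WT 3 (0.78) or R227Q 1 (1.08) and with DESeq2 (0.92). Its H448L value was 0.78 ± 0.30 and did not pass (edgeR adjusted p = 0.12). CLDN3, a tight junction protein named after its values were seen, was the 1 gene of the list that differed between the variants (−0.36, H448L minus R227Q, edgeR adjusted p = 0.037). That call was lost without any 1 of 7 libraries: WT 1 (−0.35), WT 3 (−0.32), R227Q 1 (−0.32), R227Q 2 (−0.39), R227Q 3 (−0.39), H448L 2 (−0.32) and H448L 3 (−0.38). It was also lost in 4LJFHN alone (−0.32), with the replicate block (−0.35) and without the submission term (−0.37).

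Among mesenchymal matrix, surface and contractile genes, 38 of 47 were tested. In R227Q 6 rose and 4 fell (median −0.09), beside 7.51% and 9.92% of all tested genes. In H448L 2 rose and 4 fell (median 0.09), beside 2.97% and 4.99%. CALD1, caldesmon, a regulator of contractile actin, fell by −0.47 ± 0.06 in R227Q and −0.37 ± 0.07 in H448L (edgeR adjusted p = 3.1e-06 and 9.3e-04), the H448L call being lost without WT 3 (−0.25) and its sign turning without the submission term (0.10). TPM1, a tropomyosin, fell by −0.29 ± 0.04 and −0.31 ± 0.05 (edgeR adjusted p = 9.7e-06 and 8.8e-05), and both calls held without each single library. SPARC, a secreted matrix protein, rose in R227Q by 0.38 ± 0.06 (edgeR adjusted p = 3.8e-05), within SDKYMR by 0.48 and within 4LJFHN by 0.29, and did not pass in H448L (0.18 ± 0.07, edgeR adjusted p = 0.10). Named after their values were seen, the other genes that fell in both variants were ITGB1 and CCN1, and FBN2 rose in both (0.38 and 0.36). The others that rose were COL1A1 (0.29), COL6A1 (0.21), COL6A2 (0.24) and THY1 (0.86 ± 0.29) in R227Q and MMP14 (1.64 ± 0.42) in H448L. THY1 and MMP14 were low, with means of 1.58 and 1.15 CPM. Within submissions THY1 in R227Q was 1.05 (SDKYMR) and 0.51 (4LJFHN), and MMP14 in H448L was 1.16 (4LJFHN). The summed level of this list was 843 to 881 CPM in SDKYMR and 991 to 1047 CPM in 4LJFHN. The sums of the epithelial list (520 to 534 against 553 to 577 CPM), of cadherins and catenins (922 to 983 against 1087 to 1162 CPM) and of intermediate filaments and linkers (813 to 836 against 936 to 971 CPM) also did not overlap between submissions.

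**Figure D5:**
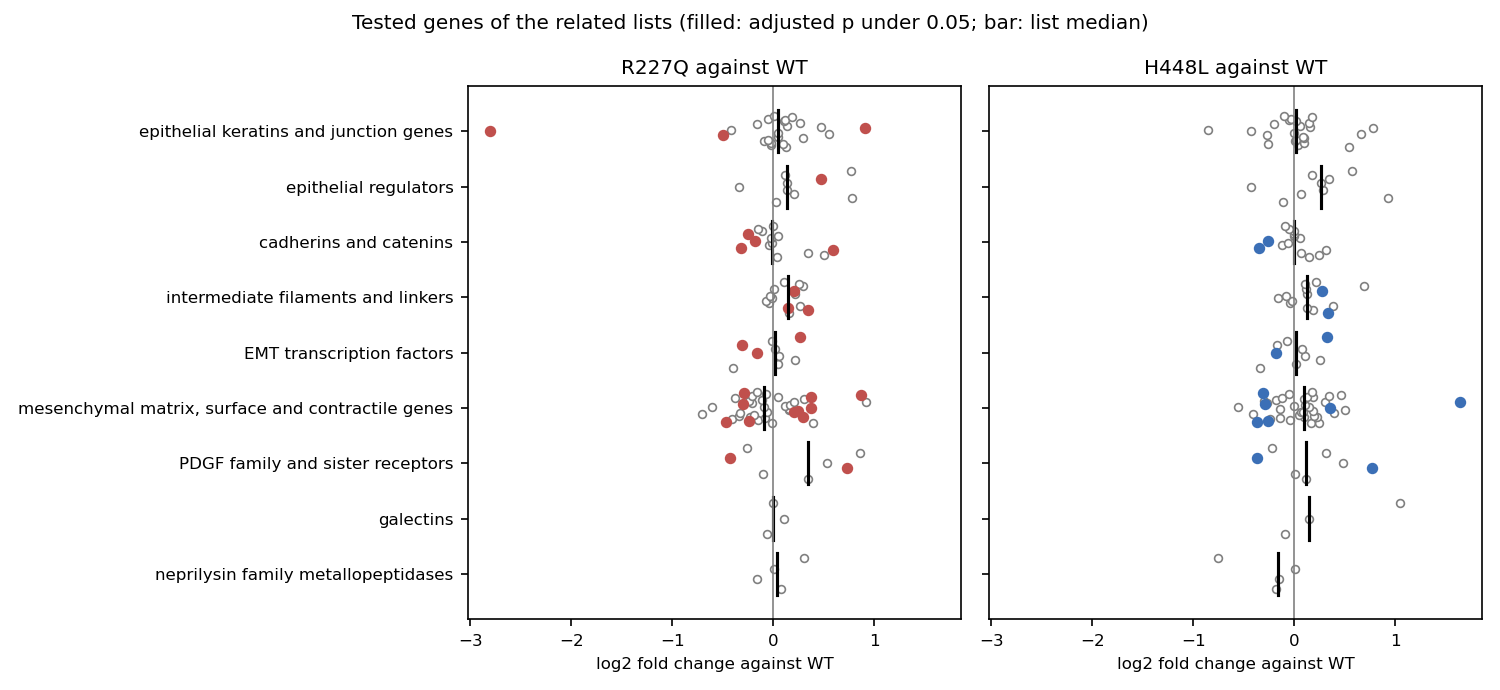
Log2 fold change against WT of each tested gene in 9 related lists, R227Q at left and H448L at right; filled points passed an edgeR adjusted p of 0.05 and black bars are list medians. Called genes lie on both sides of 0 in the mesenchymal list, 6 rising and 4 falling in R227Q, and list medians range from −0.16 to 0.35.

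EMT transcription factors were tested for 9 of 16, with 1 higher and 2 lower in R227Q and 1 higher and 1 lower in H448L (medians 0.016 and 0.022). ZEB2, a repressor of E-cadherin, stood at 0.27 ± 0.08 in R227Q and 0.33 ± 0.09 in H448L (edgeR adjusted p = 0.014 and 0.016). The ZEB2 calls were lost without WT 3 (0.28 and 0.35) or R227Q 1 (0.25 and 0.31), and the H448L call also without H448L 1 (0.28). DESeq2 ended both ZEB2 calls (0.26 and 0.32). TCF3, a bHLH factor, stood at −0.17 ± 0.05 and −0.18 ± 0.05 (edgeR adjusted p = 0.012 and 0.033), lost without WT 3 (−0.11 and −0.11), and in H448L without WT 1 (−0.18) or H448L 2 (−0.16), with DESeq2 (−0.19) and with upper-quartile factors (−0.16). TWIST1, a bHLH factor of the neural crest and mesoderm, stood at −0.31 ± 0.10 in R227Q (edgeR adjusted p = 0.031) and −0.17 ± 0.12 in H448L (edgeR adjusted p = 0.49). Its R227Q call ended without WT 2 (−0.24), WT 3 (−0.30), R227Q 1 (−0.32) or R227Q 2 (−0.26), with DESeq2 (−0.32), and with the replicate block (−0.23). Of epithelial regulators 9 of 20 were tested, and GRHL1, a grainyhead factor, was the 1 that rose in R227Q (0.48 ± 0.14, edgeR adjusted p = 0.018), while 0 passed in H448L (medians 0.14 and 0.26). Leaving out WT 1 (0.41), WT 3 (0.48), R227Q 1 (0.47) or R227Q 3 (0.42) ended the call, as did DESeq2 (0.46). The H448L value of GRHL1 was 0.345 ± 0.16 (edgeR adjusted p = 0.22).

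In the list of cadherins and catenins 14 of 34 were tested, with 1 higher and 3 lower in R227Q and 2 lower in H448L (medians −0.02 and −0.00). CDH6, a cadherin of kidney and neural crest, fell by −0.32 ± 0.05 in R227Q and −0.35 ± 0.06 in H448L (edgeR adjusted p = 4.9e-05 and 3.5e-04), and both calls held without each single library. CTNNB1, beta-catenin, which links cadherins to actin and carries Wnt signals, fell by −0.18 ± 0.04 and −0.26 ± 0.04 (edgeR adjusted p = 0.0011 and 2.8e-04), both calls being lost without WT 3 (−0.19 and −0.26). CDH24, a little-studied cadherin, rose in R227Q by 0.59 ± 0.10 (edgeR adjusted p = 5.6e-05), and by 0.65 and 0.50 within SDKYMR and 4LJFHN. Its H448L value was 0.31 ± 0.12 and did not pass (edgeR adjusted p = 0.10). The third gene that fell in R227Q, named after its values were seen, was NECTIN1. Intermediate filaments and their linkers had 14 of 20 tested, with 3 higher in R227Q and 2 in H448L and 0 lower (medians 0.15 and 0.13). NES, nestin of progenitor cells, stood at 0.21 ± 0.06 and 0.27 ± 0.07 (edgeR adjusted p = 0.022 and 0.015). Leaving out WT 2 (0.19), WT 3 (0.14), R227Q 1 (0.27) or R227Q 2 (0.20) ended the R227Q call, and leaving out WT 3 (0.18) the H448L call. DESeq2 ended both NES calls (0.20 and 0.26). INA, a neuronal filament protein, stood at 0.34 ± 0.08 in R227Q (edgeR adjusted p = 0.0036), lost without WT 3 (0.36) or R227Q 1 (0.31), and DST, a linker of filaments, at 0.33 ± 0.06 in H448L (edgeR adjusted p = 0.0011), lost without WT 3 (0.34). INA in H448L (0.19 ± 0.10, edgeR adjusted p = 0.27) and DST in R227Q (0.15 ± 0.06, edgeR adjusted p = 0.062) did not pass. KRTCAP2, named after its values were seen, was the third that rose in R227Q.

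The relatives of PDGFRA included ligands that moved apart. PDGFC fell by −0.43 ± 0.07 in R227Q and −0.37 ± 0.08 in H448L (edgeR adjusted p = 4.4e-05 and 0.0033), the H448L call being lost without WT 3 (−0.31). PDGFA rose by 0.73 ± 0.18 and 0.77 ± 0.21 (edgeR adjusted p = 0.0041 and 0.020), the calls being lost without WT 3 (0.56 in each) and, in H448L, without H448L 1 (0.62). Of the list, 7 of 11 were tested, and these were the only called genes. Of galectins 3 of 10 and of neprilysin family metallopeptidases 4 of 9 were tested, and 0 passed in either variant by edgeR. Of haematopoietic markers 6 of 20 were tested and 0 passed, none of the 8 endothelial markers reached the filter, and of the neuronal and kidney line markers 6 of 9 were tested, with MAP2 higher (0.39 ± 0.10, edgeR adjusted p = 0.0058, lost without R227Q 1, 0.27) and TUBB3 lower (−0.17 ± 0.05, edgeR adjusted p = 0.016) in R227Q. MAP2 did not pass in H448L (0.32 ± 0.11, edgeR adjusted p = 0.068). TUBB3, a neuronal tubulin, was also lower in H448L (−0.27 ± 0.06, edgeR adjusted p = 0.0033), and its calls were lost without WT 3 (−0.18 and −0.28) or, in R227Q, without R227Q 1 (−0.16).

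Across the 9 libraries, with the submission difference removed, the 3 genes of at least 5 CPM whose log2 CPM was most like that of MME were EMC6 (Pearson r = 0.994), HMGCS1 (0.994) and MANF (0.989), out of 11128 candidates. EMC6 is a subunit of the ER membrane complex, HMGCS1 an enzyme of cholesterol synthesis and MANF a secreted ER protein. Their R227Q changes were −0.28, −0.74 and −0.41. For PDGFRA they were TRMT10C (0.980), HTD2 (0.975) and UBP1 (0.973), with R227Q changes of −0.29, −0.28 and −0.25. For EPCAM, the third member by size of fold change although it passed no test, they were EIF6 (0.913), ZDHHC24 (0.912) and DTX3L (0.896). The 9 points share groups and submissions, and the values are a description of these libraries.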

How the data were processed

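Poly-A RNA of 9 Hap1 libraries was sequenced by a commercial service, per the labels' protocols, with GRCh38 named as build, per the submitters' processing notes. The sources used here name no aligner, counter, annotation release or use of strand. Per the file headers, the authors deposited estimated counts by gene, not normalized, and CPM, in 1 table per column prefix, called a submission here. CPM equalled count over library total within 1e-05. Counts were rounded; 92 ERCC entries were left out. Of values above 0, 70.4% to 72.5% were whole numbers.

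Genes were filtered with edgeR's filterByExpr (16908 kept), scaled by TMM (0.969 to 1.02) and fitted with group and submission terms (5 residual degrees of freedom) by edgeR's quasi-likelihood test, two-sided, Benjamini-Hochberg adjusted over all 16908 genes, threshold 0.05. SE is the log2 fold change over the root of F. Versions were edgeR 4.0.16, DESeq2 1.42.0 and limma 3.58.1 in R 4.3.3, and the fit was tested on simulated data. Values within a submission subtract group means of log2 CPM (prior count 2) and carry no test. Ratios of 2 genes came from counts per library and carried no submission term.

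The members and lists were chosen with earlier results of these data known. Named genes were the members, the 3 genes per list with the smallest p if called, and the 3 genes most like each of the 3 members with the largest fold change. A further gene of the lists is not reported here and was left out of its list's counts. Positions came from GENCODE 29 and promoters from RefSeq. Protein sequences were not used here. The alternatives comprised limma-voom, DESeq2, upper-quartile and RLE factors, no filter, a mean of at least 10 counts, no submission term, 4LJFHN alone, each library left out, a replicate block, pseudogene counts added to parents and, chosen after seeing the data, SDKYMR alone.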

Additional observations from a re-analysis of the deposited data

How the results depend on the processing

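The counts of called members moved as follows. In R227Q the 1 higher member became 0 with DESeq2, RLE factors, no filter, no submission term, 4LJFHN alone and SDKYMR alone (0 to 1 over the refits without 1 library). The 3 lower members became 0 without the submission term and 1 in SDKYMR alone (1 to 3 over the refits). In H448L the 3 lower members became 0 without the submission term (1 to 3 over the refits, 1 without WT 3). Over all genes, the R227Q count of 2947 was 1546 with DESeq2, 311 without the submission term, 1138 in 4LJFHN alone and 903 in SDKYMR alone (1093 to 3262 over the refits). The H448L count of 1347 was 733, 147 and 736 under the first 3 of these (253 to 1378). The count of 35 between the variants was 54 with DESeq2, 122 with no filter and 1 without the submission term (4 to 91).

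The log2 ratio of KRT8 to KRT18 moved from 0.12 to −0.16 (R227Q) and from 0.16 to −0.19 (H448L) in 4LJFHN alone. With pseudogenes added it moved to −0.09 (R227Q) and −0.14 (H448L). Over the refits it ran from −0.02 to 0.29, 0.02 to 0.33 and, between variants, −0.03 to 0.14. The VIM to KRT8 ratio moved to 0.083 (R227Q) and 0.25 (H448L) with pseudogenes added, and ran from −0.19 to 0.01, −0.08 to 0.07 and −0.03 to 0.18. In 4LJFHN alone its sign turned, to 0.057 (R227Q), 0.028 (H448L) and −0.030 (between variants).

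Signs turned as follows. Without the submission term they turned for KRT10 (0.039 in R227Q, 0.065 in H448L, 0.026 between variants), VIM (0.11, 0.14 and 0.028), CDH2 between variants (−0.032), and CALD1 in H448L (0.10). In 4LJFHN alone they turned in R227Q for KRT8 (−0.046), VIM (0.0028), EPCAM (0.0096), LGALS1 (−0.091) and CLDN3 (−0.042), in H448L for KRT8 (−0.10), and between variants for EPCAM (−0.062) and PDGFRA (0.011). LGALS1 in R227Q was −0.0073 with DESeq2 and −0.0069 with RLE factors, VIM in R227Q 0.0046 with upper-quartile factors, EPCAM between variants −0.0895 with limma-voom, and KRT8 in H448L −0.0456 with pseudogenes added. Over the refits without 1 library, the values that turned in R227Q were LGALS1 (−0.090 to 0.092), KRT8 (−0.045 to 0.33), VIM (−0.044 to 0.0039), EPCAM (−0.785 to 0.011) and CLDN3 (−0.041 to 0.22). In H448L they were KRT8 (−0.10 to 0.28), EPCAM (−0.85 to 0.035) and EIF6 (−0.12 to 0.010), and between variants EPCAM (−0.485 to 0.37) and PDGFRA (−0.12 to 0.030).

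Deviations of same-numbered libraries from their group means correlated from −0.56 to 0.66, following the submission. The submission difference was left in these deviations, so they cannot decide whether replicate numbers paired the libraries. With the replicate block and the submission term the KRT10 call in R227Q was gained (−0.14, edgeR adjusted p = 0.045), as was that of DST (0.17). That of TWIST1 in R227Q was lost (−0.23), and in H448L those of ZEB2 (0.29), TCF3 (−0.18), NES (0.27) and PDGFA (0.64) were lost, as was that of CLDN3 between variants (−0.35), and EIF6 in H448L turned to 0.024. Under the block no other call of a named gene changed. Without the submission term 4 of 4 member calls in R227Q and 3 of 3 in H448L were lost, as were 17 of 19 and 9 of 11 calls of named list genes. Depth limits CDH1 and EPCAM, and WT 3, the only WT library of 4LJFHN, carries most of the comparison with H448L. The causes were not tested.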
